A study of Homo sapiens with 24 samples.

Results

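The metallothioneins described here are MT1A, MT1B, MT1E, MT1F, MT1G, MT1H, MT1L, MT1X and MT2A, taken as all probes that carry one of these 9 gene names on the arrays. They had 11 of 42405 probes on the array design used for 16 arrays (the larger design) and 12 of 50599 probes on the design used for 8 arrays (the smaller design), the additional one being a second probe for MT1E. The study treated established human cancer cell lines and compared treated with control RNA on 24 two-colour Agilent arrays, 1 array for each line and treatment. Cy5 carried the treated sample and Cy3 its control on every array, with no dye swap, so a log2 ratio above 0 means a higher signal in the treated cells.

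The lines were the prostate cancer lines PC3, DU145 and LNCap, the renal cell carcinoma lines A498 and 786O and the head and neck squamous cell carcinoma lines FaDu and SAS. Genistein, a soy isoflavone, was given to PC3 and DU145, in the study's methods at 25 µM for 4 days against vehicle, whereas the labels call the control untreated. Wogonin, a plant flavone, was given to SAS and FaDu against DMSO. CXCL10, a chemokine, was given to 786O for 12 or 24 hours against untreated cells. Transfected miRNAs were compared with a control miRNA, namely miR-145 (PC3, DU145 and LNCap), miR-375 (FaDu), miR-23b and miR-24 (PC3), miR-27b (PC3, 786O and A498), miR-29a (SAS) and miR-143 (DU145 and PC3). Transfected siRNAs were compared with a control siRNA, namely si-CAV2 (A498 and 786O), si-LAMB3 (FaDu and SAS) and si-GOLM1 (DU145 and PC3). Doses and times of the treatments other than genistein and CXCL10 were not given in the sources used here.

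Metallothioneins are small proteins rich in cysteine that bind zinc and copper and, on exposure, cadmium. Their genes lie together on the long arm of chromosome 16. MTF1, the metal-responsive transcription factor, senses free zinc and binds metal response elements (MREs) in their promoters, and glucocorticoids and oxidative stress are further known inducers. MT2A and MT1X are widely transcribed, MT1G, MT1H and MT1M are more restricted, and MT1L is a transcribed pseudogene.

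The promoters of 4 of the 9 genes are in the RefSeq table (GRCh38.p14), and they are shown because most members had like log2 ratios on an array. The 250 bases before each start are printed, all on the plus strand of chromosome 16. MT2A is chr16:56608334-56608583, MT1B is chr16:56651636-56651885, MT1H is chr16:56669564-56669813 and MT1X is chr16:56682220-56682469. Capitals mark the MRE core on either strand, searched as TGCACNC and TGCGCNC.
MT2A: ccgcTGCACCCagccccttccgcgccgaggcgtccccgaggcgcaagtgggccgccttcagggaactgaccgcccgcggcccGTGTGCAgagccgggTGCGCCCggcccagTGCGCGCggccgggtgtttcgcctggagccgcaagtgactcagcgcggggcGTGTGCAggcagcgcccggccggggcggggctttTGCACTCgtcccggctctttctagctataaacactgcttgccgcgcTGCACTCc
MT1B: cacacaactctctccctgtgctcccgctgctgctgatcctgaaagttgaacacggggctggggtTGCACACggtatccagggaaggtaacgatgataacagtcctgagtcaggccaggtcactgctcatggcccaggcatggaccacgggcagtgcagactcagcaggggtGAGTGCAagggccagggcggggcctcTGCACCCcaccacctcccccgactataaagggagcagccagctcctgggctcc
MT1H: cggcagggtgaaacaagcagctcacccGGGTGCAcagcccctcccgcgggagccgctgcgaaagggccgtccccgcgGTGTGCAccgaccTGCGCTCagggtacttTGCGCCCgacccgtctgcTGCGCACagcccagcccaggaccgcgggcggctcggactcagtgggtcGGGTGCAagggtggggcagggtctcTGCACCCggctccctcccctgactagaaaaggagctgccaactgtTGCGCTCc
MT1X: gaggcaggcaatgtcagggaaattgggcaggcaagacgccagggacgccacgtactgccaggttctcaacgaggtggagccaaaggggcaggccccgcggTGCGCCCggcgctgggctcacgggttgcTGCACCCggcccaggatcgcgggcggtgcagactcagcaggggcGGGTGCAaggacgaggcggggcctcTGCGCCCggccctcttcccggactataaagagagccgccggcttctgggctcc
Over the whole window of 300 bases, which runs 50 bases past the start, MT2A and MT1H held 8 such cores each, MT1X held 4 and MT1B held 3. Of 35116 promoters of the same length, 29.6% held at least 1 core, 2.3% at least 3, 0.601% at least 4 and 0.074% at least 6. The promoter of SLC30A1, which encodes a zinc exporter, held 2 cores and that of MTF1 itself held 0. A match of these letters is a description of the sequence and not a binding site. The antioxidant response core TGACNNNGC occurred 1 time in MT2A, MT1B and MT1X and not in MT1H, against 13.3% of all promoters with at least 1.

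The members are close copies of one another, so the probes themselves bear on what was measured. The brightest probes of MT1A, MT1H and MT1X lie in the coding sequence and are shown because they share long runs. Capitals mark the bases that a probe shares with another of the 3 in its longest common run.
MT1A: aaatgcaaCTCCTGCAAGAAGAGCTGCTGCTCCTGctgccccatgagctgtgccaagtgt
MT1H: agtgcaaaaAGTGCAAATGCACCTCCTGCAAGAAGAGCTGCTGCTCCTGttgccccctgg
MT1X: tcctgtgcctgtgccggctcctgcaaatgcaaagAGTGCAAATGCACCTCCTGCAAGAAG
In 1 reading frame these probes held 8, 8 and 7 cysteine codons and 0 stop codons. The MT1A and MT1H probes share a run of 27 of their 60 bases, and the MT1H and MT1X probes share a run of 26. The array's annotation also assigns the coding MT1X probe to the transcript of MT1B, the MT1A probe to that of MT1M, and the second MT1E probe to those of MT1M and the pseudogene MT1JP. It gives coordinates on an older build than GRCh38, without naming it, and there the coding MT1X probe lies at chr16:56717082-56717141. The second MT1X probe lies further along the gene, at chr16:56717962-56718021 of the same annotation, and shares at most 6 bases in a row with the coding one. Signal from one member on another member's probe cannot be told apart from that member's own transcript where such runs are shared.

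Of the 11 probes on the larger design, 9 were well above the local background in both channels on all 16 arrays. The MT1G probe was well above background in at least 1 channel on 4 of 16 arrays and on 5 of 8 arrays of the smaller design. The second MT1H probe, at the 3′ end of the gene, was above background on 1 of 16 and on 1 of 8 arrays. No spot of a member was saturated. The targeted genes of the siRNA arrays, untested with 1 array each, had log2 ratios as follows, with CAV2 at -3.80 and -3.20, GOLM1 at -3.02 and -4.15 and LAMB3 at -2.50 in FaDu, whereas LAMB3 was at -0.89 in SAS, within the range of -2.11 to 4.21 on the arrays of other treatments. The summed level of 5 squamous markers (log2 Cy3 signal over the array's 75th percentile) was 6.56 to 7.51 in FaDu and 3.32 to 6.37 in SAS, where TP63 was not above background on all arrays, and at most 2.64 elsewhere. That of 5 renal markers was 3.03 to 5.11 in A498 and 786O, in the latter of which CA9 was not above background on all arrays, and at most 1.83 elsewhere.

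**Figure D1:**
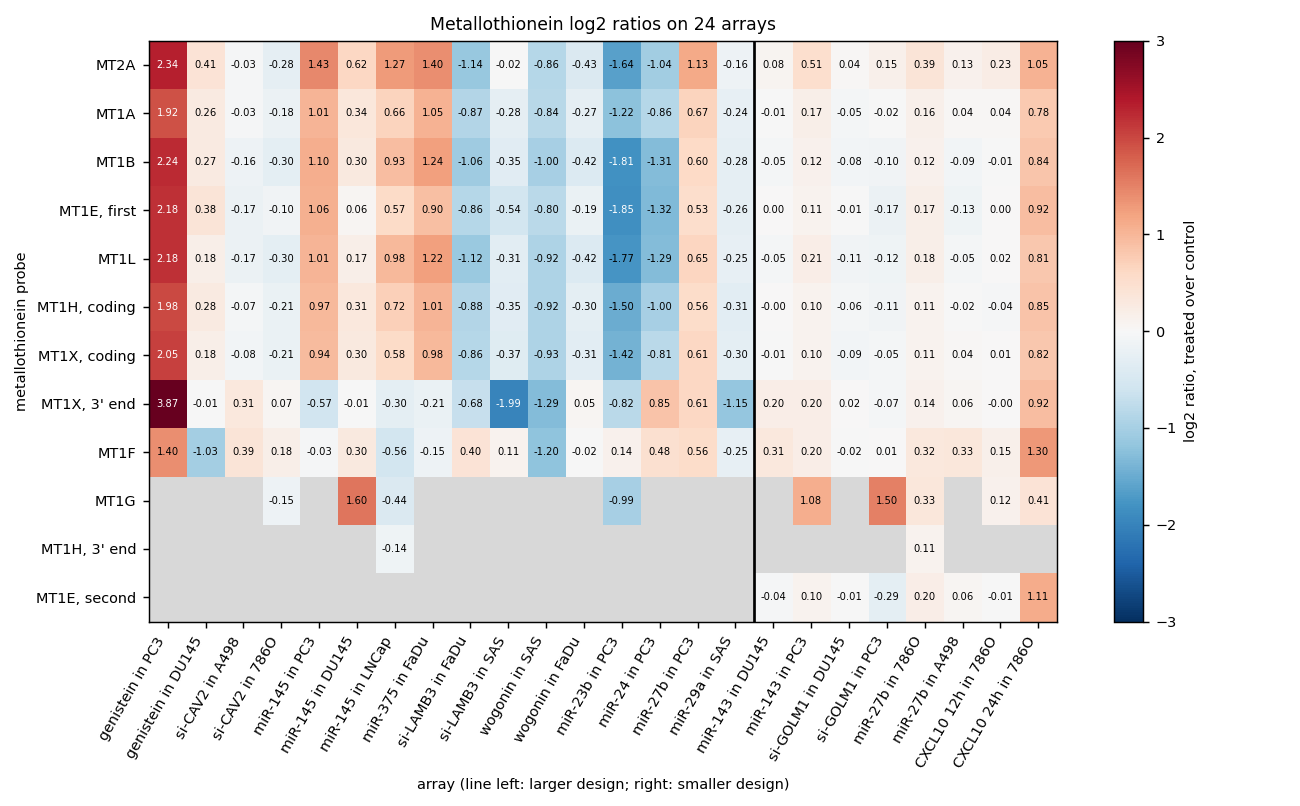
Log2 ratio of treated (Cy5) over control (Cy3) signal for each metallothionein probe (rows) on each of the 24 arrays (columns, 1 array per condition, larger design left of the line). Grey cells were not well above background in either channel, or, for the second MT1E probe, not on the design. The top 7 rows share their colours on each array, from 1.92 to 2.34 for genistein in PC3 to -1.85 to -1.22 for miR-23b in PC3.

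Each log2 ratio below is given with the error that the scanner software computed for that array, since a condition has no replicate. A gene was counted as past the limit at a log2 ratio of 1.0 or more in size, that is a 2-fold difference, and is represented by its brightest probe. Over the 24 arrays, 201 gene values were measured, of which 25 were past the limit upwards (12.4%) and 17 downwards (8.46%). Over all genes and arrays the shares were 5.47% and 4.08%. The values are not independent, because the members' log2 ratios were alike and some of their probes share long runs of sequence.

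MT2A, the most widely transcribed member, had its highest log2 ratio after genistein in PC3, at 2.34 ± 0.30, or 5.07-fold. Relative to the channel's 75th percentile, its log2 control signal there was 5.74 and its treated signal 8.09. Control signals of MT2A on the other PC3 arrays of the larger design were 7.17 to 7.99. For MT1E the control was 2.25 and the treated signal 4.44, against other controls of 4.15 to 4.59. What the low control contributed to these ratios was not tested. In DU145 genistein gave 0.41 ± 0.21 for MT2A. All 8 measured genes were past 1.0 in PC3, against 10.4% of all measured genes. Their median was 2.11, against 0.08 over all genes. MT1A was at 1.92 ± 0.27, MT1B at 2.24 ± 0.29 and MT1E at 2.18 ± 0.29. MT1L was at 2.18 ± 0.29, MT1H at 1.98 ± 0.27 and MT1X at 2.05 ± 0.28. MT1F was the lowest of the 8, at 1.40 ± 0.24. In DU145 the 7 genes other than MT1F lay between 0.18 and 0.41, while MT1F was at -1.03 ± 0.23 and past the limit in the other direction, as were 6.89% of all genes. The median of the 8 genes was thus 2.11 in PC3 and 0.26 in DU145.

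The PC3 arrays of transfected miRNAs gave both directions. After miR-145, MT2A was at 1.43 ± 0.24 in PC3, 0.62 ± 0.21 in DU145 and 1.27 ± 0.23 in LNCap, so it was above 0 in all 3 lines. MT1F was at -0.03 ± 0.20 in PC3, where 5 of 8 genes were past 1.0, against 8.34% of all genes. In LNCap only MT2A of 9 measured genes was, against 6.70% of all genes, and in DU145 only MT1G, at 1.60 ± 0.67, against 3.45%. This MT1G value rests on the treated channel alone, since the control channel was not well above background, and it was 0.20 with another background correction (normexp) and normalization (loess).

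After miR-23b in PC3, 7 of 9 genes were past 1.0 downwards, against 4.99% of all genes. MT1E was at -1.85 ± 0.27, MT1B at -1.81 ± 0.26 and MT2A at -1.64 ± 0.25. MT1F stood apart at 0.14 ± 0.21. After miR-24 in PC3, 5 of 8 genes were past 1.0 downwards, against 11.1% of all genes, with MT1E at -1.32 ± 0.24 and MT2A at -1.04 ± 0.23. MT1F was above 0 on this array too, at 0.48 ± 0.21. After miR-27b in PC3, MT2A was at 1.13 ± 0.23 and the other 7 genes between 0.53 and 0.67, so that 1 of 8 was past 1.0, against 8.92% of all genes. The files of these 3 PC3 arrays name the same control, and their control channels differed by a standard deviation of 0.21 to 0.22 on the log2 scale over 20457 probes, against 0.59 to 0.70 between PC3 arrays with other controls. These 3 arrays also lie on 1 slide, and the labels do not say whether their controls were 1 culture. They were treated here as sharing their control.

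In the head and neck lines both directions were seen. After miR-375 in FaDu, 5 of 8 genes were past 1.0 upwards, against 10.2% of all genes, with MT2A at 1.40 ± 0.24 and MT1F at -0.15 ± 0.21. The MT2A control signal on that array was 6.73 and the treated signal 8.14, against controls of 8.07 and 8.45 on the other FaDu arrays. After si-LAMB3 in FaDu, 3 of 8 genes were past 1.0 downwards, against 4.13% of all genes, with MT2A at -1.14 ± 0.23 and MT1F at 0.40 ± 0.21. After si-LAMB3 in SAS, the 8 genes lay between -0.54 and 0.11, with a median of -0.33. There 7 of 8 genes were below 0, with MT2A at -0.02 ± 0.20. After wogonin in SAS, the 8 genes lay between -1.20 and -0.80, and 1 of 8, MT1F, was past 1.0, against 5.60% of all genes. The MT1F value was -0.88 with normexp and loess. In FaDu wogonin gave values between -0.43 and -0.02. After miR-29a in SAS the 8 genes lay between -0.31 and -0.16. The second MT1X probe lay apart from the ranges in SAS after miR-29a, at -1.15 ± 0.23, and after si-LAMB3, at -1.99 ± 0.27. After wogonin in SAS it was at -1.29 ± 0.24, within its error of the lower end of the range.

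In the renal lines, after si-CAV2 the genes lay between -0.17 and 0.39 in A498 and between -0.30 and 0.18 in 786O. After miR-27b the ranges were 0.11 to 0.39 in 786O and -0.13 to 0.33 in A498. For CXCL10 at 12 hours the 9 genes lay between -0.04 and 0.23. At 24 hours all 9 were above 0, with MT2A at 1.05 ± 0.23 and MT1F at 1.30 ± 0.24, and these 2 were past 1.0, against 1.41% of all genes. The second MT1E probe was at 1.11 ± 0.23 at 24 hours and -0.01 ± 0.20 at 12 hours. Each time had its own control, and the difference between the times was not tested. The log2 control signal of MT1B over the 75th percentile was 5.62 at 24 hours and 6.74 at 12 hours. Its treated signal was 6.46 and 6.72. MT1A, MT1H, MT1L and MT1X likewise had both signals lower at 24 hours. MT1E, MT1F and MT2A had a lower control but a higher treated signal at 24 hours. For MT2A these were 7.58 and 8.64, against 8.11 and 8.33. The MT1G control was not well above background at 24 hours. What the low control contributed was not tested. MT1G was past 1.0 on 2 more arrays with the treated channel alone above background, in PC3 after miR-143 (1.08 ± 0.43, against 1.39% of all genes) and after si-GOLM1 (1.5 ± 0.65, against 2.65%). With normexp and loess these were 0.27 and 0.19. The other 8 genes lay between 0.10 and 0.51 and between -0.17 and 0.15 on these 2 arrays. In DU145 the 8 measured genes lay between -0.05 and 0.31 after miR-143 and between -0.11 and 0.04 after si-GOLM1.

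**Figure D2:**
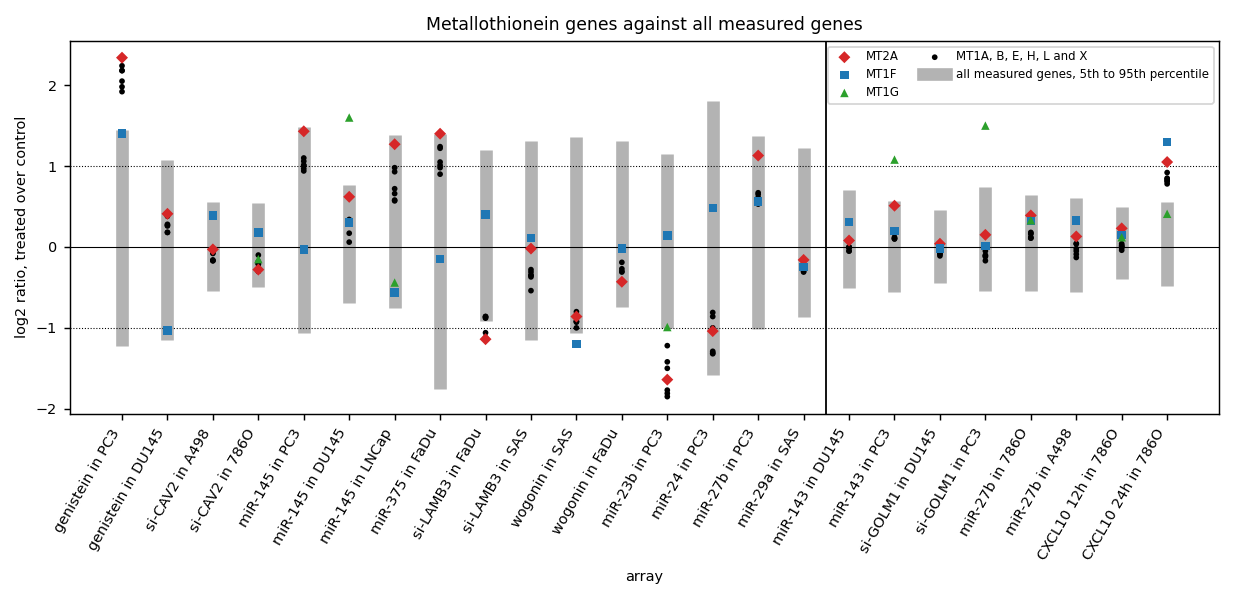
Log2 ratio (treated over control) of each metallothionein gene, by its brightest probe, on the 24 arrays; grey bars span the 5th to the 95th percentile of all measured genes and dotted lines mark 1.0 and -1.0. For genistein in PC3 7 of 8 genes lie above the bar, and for miR-23b in PC3 7 of 9 genes lie below it.

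Treatments used on 2 or 3 arrays were tested with limma as a mean over those arrays against 0, with adjustment over all measured probes. The arrays of a treatment were different lines, except for CXCL10, whose arrays were 12 and 24 hours in 786O. The CXCL10 mean thus pools both times in 1 line and tests neither time alone. None of the 9 treatments passed an adjusted p of 0.05 for any member by its brightest probe, higher or lower. For genistein, which called 9.41% of all probes, the lowest adjusted p was 0.0736, for MT1E at a mean of 1.28 ± 0.39 (SE, n = 2 arrays, limma), and 7 of 8 genes had an unadjusted p under 0.05. The MT1E values behind this mean were 2.18 in PC3 and 0.38 in DU145. The SE rests on the spread over all arrays of the design and does not measure how far these lines agreed. With the genistein arrays alone the adjusted p was 0.389 for MT1E and 0.384 for MT2A by limma. MT2A was at 1.38 ± 0.43 with an adjusted p of 0.0813 by limma. For miR-145, which called 6.61%, MT2A was at 1.10 ± 0.35 (SE, n = 3 arrays) with an adjusted p of 0.0973 by limma, above 0 in 3 of 3 lines, and 4 of 8 genes had an unadjusted p under 0.05. For si-LAMB3 (7.43% of all probes called) and wogonin (3.49%) the lowest adjusted p of a member was 0.297 and 0.359 by limma, with 0 genes at an unadjusted p under 0.05. For si-CAV2 (0.123%), CXCL10 (0.130%), miR-143 (0.150%), miR-27b in the renal lines (0.528%) and si-GOLM1 (0.328%) it was 0.498 or above, and the only genes at an unadjusted p under 0.05 were 2 of 9 for CXCL10. Leaving out the DU145 array made 7 members pass for genistein, with MT2A at 2.34 and an adjusted p of 0.0176, but PC3 then stood alone and was assumed to vary like the other arrays.

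The probes did not all give like ratios. On the larger design, 7 probes, those of MT1A, MT1B, MT1E, MT1L and MT2A and the coding probes of MT1H and MT1X, gave Pearson r of 0.9632 to 0.9985 over 16 arrays in every pair. The MT2A probe shared at most 5 bases in a row with any other probe of this group. Its r with them was 0.9632 to 0.9915. These 7 were set apart after their values were seen, and the arrays share their slides and, in part, their controls. On a single array of either design they spanned 0.13 to 0.70. MT1F correlated with them at only 0.231 to 0.335, and the second MT1X probe at 0.517 to 0.635.

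The second MT1X probe was at 3.87 ± 0.42 after genistein in PC3, where the coding probe was at 2.05 ± 0.28. It was at 0.85 ± 0.22 after miR-24 in PC3, where the coding probe was at -0.81 ± 0.22. After si-LAMB3 in SAS the values were -1.99 ± 0.27 and -0.37 ± 0.21. After miR-145 in PC3 they were -0.57 ± 0.21 and 0.94 ± 0.22. On 9 of 16 arrays the 2 probes had opposite signs, and the largest difference was 1.83. Several of these 9 arrays held a value within its error of 0. The second probe was at -0.01 ± 0.20 in DU145 both after genistein and after miR-145. On the smaller design they differed by at most 0.21, with r = 0.969 over 8 arrays. Whether this difference between the 2 probes of MT1X comes from the transcript they measure or from signal of other members on the coding probe was not tested. MT1F had no second probe. On the smaller design MT1F correlated with the 7 probes at 0.878 to 0.975, but there 1 array, CXCL10 at 24 hours, lay apart with MT1F at 1.30 and a median of 0.84 for the 7 probes, while MT1F lay between -0.02 and 0.33 on the others. The correlations on that design rest on this array.

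**Figure D3:**
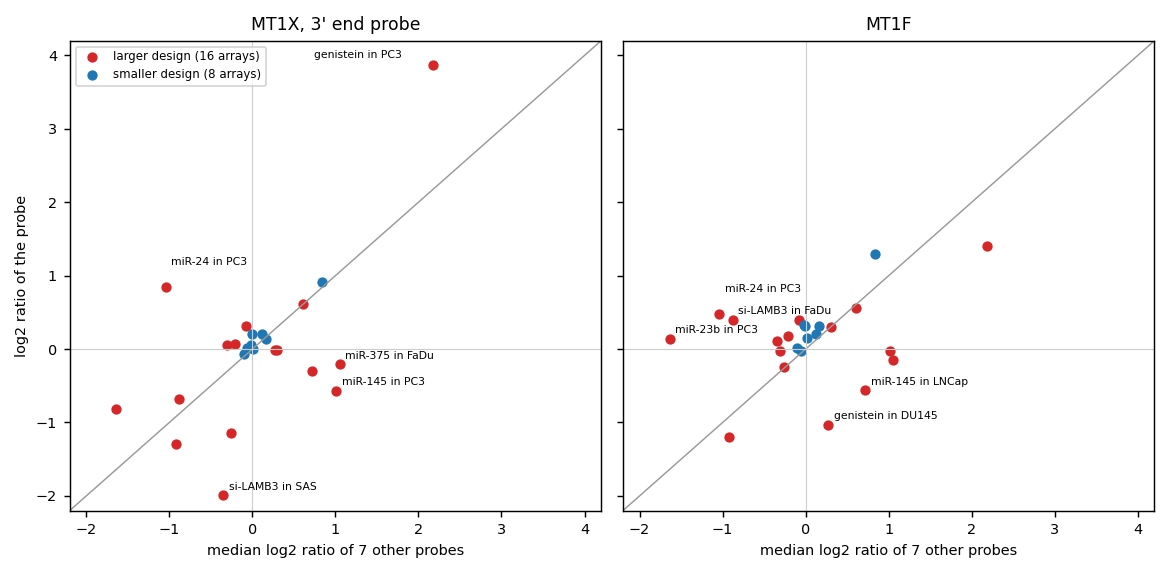
Log2 ratio of the second (3′ end) MT1X probe (left) and of MT1F (right) on each of the 24 arrays against the median of 7 other metallothionein probes on the same array; the grey line marks equal values and arrays far from it are named. Genistein in PC3 lies at 3.87 on the left and miR-24 in PC3 at 0.85, against medians of 2.18 and -1.04.

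The control cells, which were untreated, transfected with a control miRNA or siRNA or, for 1 of 3 controls each of SAS and FaDu, given DMSO, were compared between lines. The level used here is the log2 Cy3 signal relative to the 75th percentile of its array, and it compares lines for 1 probe, never probes with each other. MT2A on the larger design was 8.64 ± 0.30 in SAS (SD, n = 3 controls), 7.75 ± 0.91 in FaDu (n = 3), 7.15 ± 0.63 in DU145 (n = 2) and 6.90 ± 1.03 in PC3 (n = 3). It was 7.58 in 786O, 7.50 in A498 and 5.37 in LNCap, with 1 control each. Among lines with several controls no neighbours in this order differed by more than the SD of the more variable one, and MT2A passed in none of the 6 comparisons of such lines. On the smaller design it was 8.47 ± 0.10 in PC3 (SD, n = 2), 8.07 ± 0.47 in 786O (SD, n = 3), 7.82 ± 0.06 in DU145 (SD, n = 2) and 7.88 in A498 (1 control).

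The 6 genes MT1A, MT1B, MT1E, MT1H, MT1L and MT1X were lower in PC3 than in SAS at an adjusted p under 0.05, of 8 genes tested, against 16% of all probes lower in PC3. MT1E differed most, by -3.02 ± 0.66 in the fit with the slide as a term (SE, adjusted p = 0.00732, limma), with means before that adjustment of 3.69 ± 1.26 in PC3 (SD, n = 3) and 7.26 ± 0.08 in SAS (SD, n = 3), whose controls did not overlap. The second MT1X probe was lower too, by -3.07 ± 0.85 (SE, adjusted p = 0.0226, limma). Of these genes only MT1E was also higher in DU145 than in PC3, by 2.05 ± 0.63 (SE, adjusted p = 0.0447, limma, against 13.3% of all probes) and in FaDu than in PC3, by 2.09 ± 0.57 (SE, adjusted p = 0.0166, limma, against 20.6% of all probes). All 3 SAS controls lie on 1 slide, on which PC3 has a single control, measured on 3 arrays. Without that control none of these genes passed in any comparison with PC3, and without the PC3 control of the miR-145 array 18 gene calls between lines passed in place of 8. MT1B and MT1L also lost their call without any 1 of the 3 SAS controls, with differences of -2.12 to -2.05 (adjusted p of 0.0578 to 0.0735, limma). With quantile normalization their differences were both -1.71 (adjusted p of 0.0610 and 0.0672, limma), with normexp and quantile normalization -1.63 and -1.66 (0.0545 and 0.0531), and without the filter -2.07 and -2.09 (0.0554 and 0.0599). MT1E lost its call against DU145 without the DU145 control of the miR-145 array, where the difference was 1.39 (adjusted p = 0.251, limma), or without the untreated PC3 control, where it was 1.21 (adjusted p = 0.136, limma). It also lost it without the slide term and without the filter (adjusted p of 0.0635 and 0.0688, limma). The call of MT1E against FaDu was lost without the FaDu control of the miR-375 array (adjusted p = 0.107, limma). The comparison of PC3 with DU145 within 1 slide gave 0 calls and that of FaDu with SAS within the other slide gave 6.

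On the smaller design the levels of PC3 were above those of DU145 for the brightest probes of the 8 genes measured on all arrays. MT1A was 6.98 ± 0.66 in PC3 and 6.39 ± 0.25 in DU145 (SD, n = 2 each), against 5.20 ± 0.95 (n = 3) and 5.85 ± 0.66 (n = 2) on the larger design. The PC3 controls of the designs also differed in the summed squamous markers, which were at 2.14 to 2.64 on the smaller design, with KRT14 and KRT6A above background, and at -4.39 to -3.78 on the larger one. The part of this difference in the metallothionein levels was not tested. MT1F was the only gene called there by its brightest probe. Its mean was 3.74 ± 1.04 in PC3 (SD, n = 2), 1.74 ± 0.22 in 786O (SD, n = 3) and 0.18 ± 0.03 in DU145 (SD, n = 2), and 1 A498 control was at -3.45. DU145 was lower than PC3 by -3.56 ± 0.48 (SE, adjusted p = 0.00475, limma, against 9.95% of all probes lower). For 786O the difference from PC3 was -2.00 ± 0.43 (SE, adjusted p = 0.0178, limma, against 14.1% lower) and from DU145 it was 1.55 ± 0.43 (SE, adjusted p = 0.0420, limma, against 14% higher). The difference of 786O from PC3 did not pass without the PC3 control of the miR-143 array, where it was -1.27 (adjusted p = 0.0579, limma), or without either 786O control for CXCL10 (0.0532 and 0.0529, limma). That from DU145 did not pass without either DU145 control or either of these 786O controls (adjusted p of 0.0733 to 0.179, limma) or with normexp and quantile normalization or without the filter (0.0537 and 0.0738, limma). The difference of DU145 from PC3 passed under every alternative run. On the larger design MT1F was 0.49 ± 1.25 in PC3 and 0.13 ± 0.88 in DU145, a difference that did not pass.

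The MT1G probe and the second MT1H probe were above background in few lines. MT1G was at 2.44 in the single LNCap control and at -3.69 in 786O, and it was not well above background in DU145, FaDu, SAS or A498 on the larger design. LNCap was at least 276-fold higher than SAS, 315-fold higher than FaDu, 378-fold higher than A498 and 516-fold higher than DU145, each against the lowest signal above background or the probe's own on each array (log2 Cy3 values after quantile normalization of the mean of both channels). PC3 had 1 of 5 arrays above background. The second MT1H probe was above background in LNCap alone on that design, at least 5.16-fold higher than in SAS. The coding MT1H probe, in contrast, was well above background on every array of both designs. The second MT1E probe, on the smaller design only, was 6.25 ± 0.76 in 786O (SD, n = 3), 5.92 ± 0.38 in DU145 (n = 2), 3.96 ± 1.36 in PC3 (n = 2) and -3.21 in the A498 control. For this probe 786O was higher than PC3 by 2.29 ± 0.67 (SE, adjusted p = 0.0478, limma), whereas the first MT1E probe gave 0.48 ± 0.67 (SE, adjusted p = 0.610, limma). In the same A498 control the first MT1E probe was well above background, at 4.14.

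**Figure D4:**
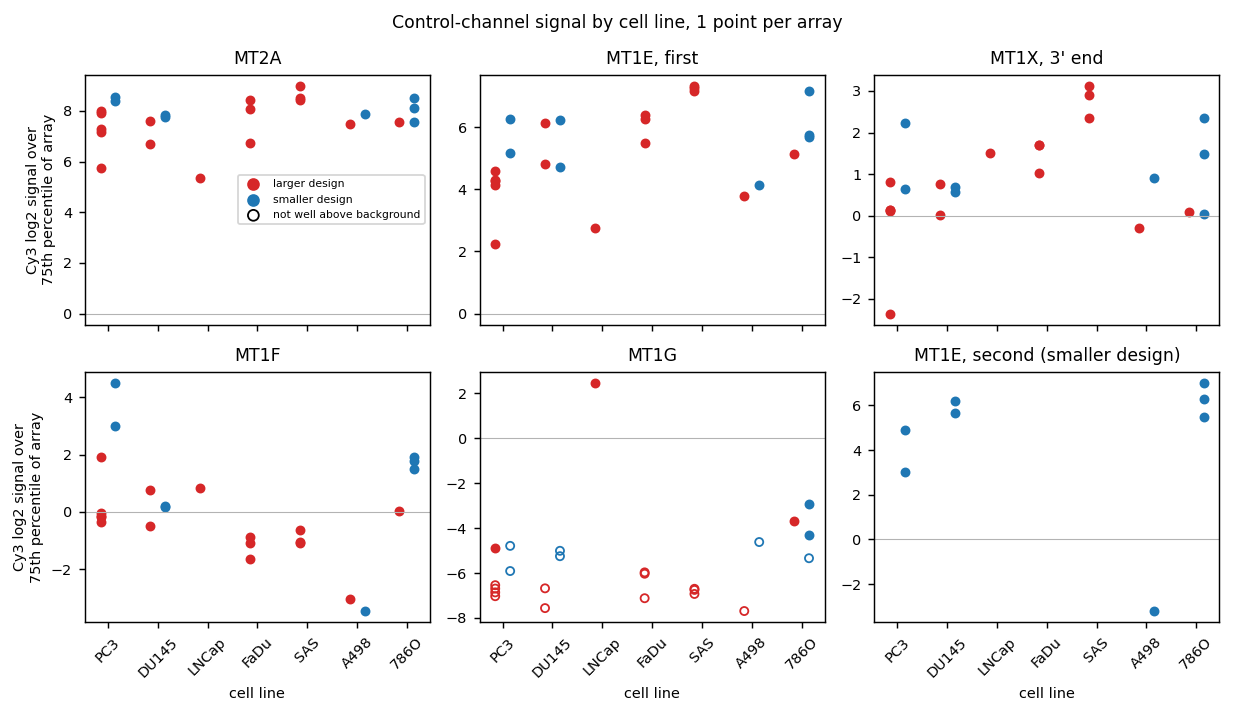
Control-channel (Cy3) log2 signal over the 75th percentile of the array, by cell line, for 6 metallothionein probes, 1 point per array in the larger (red) and smaller (blue) design; open points were not well above background. MT1G is at 2.44 in LNCap and at -2.93 or below elsewhere, and the second MT1E probe is at -3.21 in A498.

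Genes of zinc handling were counted beside the members on the 5 arrays where most members were past 1.0. The list held MTF1 and the zinc transporters of the SLC30 and SLC39 families. SLC30A1, a zinc exporter, was at 2.56 ± 0.33 after genistein in PC3, where the members were also high, and at 1.44 ± 0.26 after miR-24 in PC3, where the members were low. It was at -0.21 ± 0.21 after miR-145 in PC3, -0.06 ± 0.20 after miR-375 in FaDu and 0.02 ± 0.24 after miR-23b in PC3. After genistein in DU145, outside these 5 arrays, SLC30A1 was at 1.33 ± 0.24, where the median of the members was 0.26. MTF1 was at -1.56 ± 0.25 after miR-23b and at -0.85 ± 0.22 after miR-24 in PC3, and between -0.33 and 0.29 on the other 3 of the 5 arrays. SLC39A10, a zinc importer, was at 2.88 ± 0.34 after miR-24, 1.27 ± 0.27 after miR-23b and -0.95 ± 0.23 after genistein in PC3. It was at 0.00 ± 0.21 after miR-145 in PC3 and at 1.83 ± 0.28 after miR-375 in FaDu. Of the measured genes of the list, 2 of 21 were past 1.0 upwards after genistein in PC3, 4 of 19 after miR-23b and 5 of 20 after miR-24, and 0, 1 and 6 downwards. Over all genes the upward shares on these arrays were 10.4%, 6.58% and 14.7%, and the downward ones 7.22%, 4.99% and 11.1%. After miR-145 in PC3 there were 0 of 20 in either direction, against 8.34% upwards and 5.65% downwards over all genes, and after miR-375 in FaDu 2 of 21 upwards and 1 downwards, against 10.2% and 12.5%. The list's medians were 0.16, 0.23 and -0.03, against 0.08, 0.04 and 0.05 over all genes. Of the other metallothioneins, MT1M was at 1.44 ± 0.26 after genistein and at -1.10 ± 0.32 after miR-24 in PC3, and MT1IP was at 1.19 ± 0.78 after miR-145 in PC3, which were the only values past 1.0 of the 2 or 3 measured genes of that list on these 5 arrays. After miR-23b in PC3, where 7 of 9 members were past 1.0 downwards, MT1M was at 0.70 ± 0.24. It was at 0.33 ± 0.21 after miR-145 in PC3 and 0.60 ± 0.21 after miR-375 in FaDu.

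The gene most like the mean of the 8 members measured on all 16 arrays was a probe named ENST00000379816, with r = 0.987 (0.979 over the 8 arrays of the smaller design). It lies at chr16:56682743-56682802 of the array's annotation, within the cluster, and shares a run of 17 bases with the coding MT1X probe. The next was SH3GLB2, on chromosome 9, at r = 0.819 (0.184 on the smaller design), followed by 4 probes without a gene symbol at 0.774 to 0.795. SLC30A1 had r = 0.398 (0.668 on the smaller design) and MTF1 r = 0.263 (-0.347 on the smaller design). These correlations rest on arrays that share slides and controls and were not tested.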

How the data were processed

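The authors deposited the Agilent Feature Extraction 10.7.3.1 output of 24 arrays. Deposited intensity values are raw means, local background and signals corrected for background and dye. The deposited log10 ratio (Cy5 over Cy3), equal to the deposited series table, was multiplied by 3.3219 to the log2 scale used here. Its error is the software's for 1 array. Control and outlier spots were left out and spots of a probe averaged. A probe was measured where at least 0.5 of its spots were well above background in 1 channel (53.2 to 67.6% of Cy3 spots were). The number of arrays limits the precision.

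Limma 3.58.1 in R 4.3.3 fitted a coefficient per treatment, or, for log2 Cy3 signals minus the array's 75th percentile, per line, with slide as a term, and Benjamini-Hochberg adjustment over all measured probes at 0.05. Arrays with the same control name were averaged. The control names come from the deposited file names, and nothing states that samples came from separate cultures, so p-values may measure technical spread. The rest was done in Python 3.11.15. On simulated data for genistein (25752 probes) the fit called 188 of 200 probes changed by 2 and 138 of 200 changed by 1, besides 22 unchanged. For PC3 minus SAS (22815 probes) it called 131 and 21 of 200, besides 0 unchanged.

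Every member is described by its brightest probe, with its other probes by range or where they lay apart. Of each further list the 2 genes with the largest log2 ratio on arrays where most members passed 1.0 are named, besides MTF1 and SLC30A1. The members and lists were chosen with earlier results of these data known. Alternatives changed the background correction, normalization, dye bias, probes, filter, limit, slide, controls and arrays used. For RNA extraction the study names miRNeasy and the labels Trizol. The marker check of the prostate lines is not reported here.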

Additional observations from a re-analysis of the deposited data

Results flagged for a closer look

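MT1F had opposite directions after genistein in the 2 lines given it. In PC3 it was at a log2 ratio of 1.40 ± 0.24 and in DU145 at -1.03 ± 0.23 (errors of the scanner software, 1 array each). The difference was not tested. The MT1F level in the control channel was 0.49 ± 1.25 over the PC3 controls of the larger design (SD, n = 3). The other genes measured on all arrays had SDs of 0.95 to 1.26 there. The MT1F control was at -0.35 on the genistein array in PC3 and at 1.93 on the miR-145 array. No group had 4 to 10 control samples, so single samples were not tested for lying apart.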

How the results depend on the processing

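With a limit of 0.58 in place of 1.0, 44 gene values were past it upwards and 31 downwards. The other alternatives for this count kept it within 1.5 times, while over all genes the shares of 5.47% upwards and 4.08% downwards became 1.14% and 1.39% with normexp and loess. For treatments used on 2 or 3 arrays, 1 member passed upwards with normexp and loess (MT2A after genistein, adjusted p = 0.0432, limma) and 1 with the other treatments subtracted (MT1E after genistein, adjusted p = 0.0407, limma), against 0. Without the filter MT2A and MT1E after genistein had adjusted p of 0.153 and 0.139 by limma. With the genistein arrays alone these were 0.384 and 0.389. Leaving out 1 array gave 0 to 7 upwards, the 7 without genistein in DU145, and 0 to 0 downwards. Between lines on the larger design, 8 calls became 15 without the slide term, 13 with arrays as separate controls and 5 without the filter, and leaving out 1 control gave 0 to 18, the 0 without the PC3 control of slide 2 and the 18 without the PC3 control of the miR-145 array. On the smaller design 3 calls became 1 to 3, the 1 without either of the 786O controls for CXCL10. For DU145 and PC3 the 1 call became 0 within slide 1, and for FaDu and SAS 0 became 6 within slide 2. The cause was not tested. Of the 3 calls of MT1G, none passed 1.0 with normexp and loess. None of these counts, of the gene values past 1.0 or of the called differences between lines reversed its direction. Values within 1.0 were not followed through the alternatives. No paired analysis was possible because each condition has 1 array and the labels give no replicate numbers. MT1G and the second MT1H probe were near background, which limits them to LNCap and a few other arrays.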

Other observations

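Genes of the heat shock and oxidative stress response and of the glucocorticoid response, were counted on the 5 arrays where most metallothioneins were past a log2 ratio of 1.0. HMOX1, which encodes heme oxygenase, was at 1.62 ± 0.25 after genistein in PC3, 1.31 ± 0.24 after miR-23b in PC3, 1.12 ± 0.23 after miR-24 in PC3, 0.48 ± 0.21 after miR-145 in PC3 and -5.60 ± 0.57 after miR-375 in FaDu. HSPA6, an inducible heat shock protein, was at -2.59 ± 0.32 after genistein in PC3, 1.24 ± 0.24 after miR-23b and -1.96 ± 0.33 after miR-24. Of the 10 genes of the list, 2 were past 1.0 upwards and 2 downwards after genistein in PC3, 0 and 0 after miR-145 in PC3, 1 and 2 after miR-375 in FaDu, 3 and 1 after miR-23b and 2 and 1 after miR-24. Over all genes the shares past 1.0 upwards and downwards on these arrays were 10.4% and 7.22%, 8.34% and 5.65%, 10.2% and 12.5%, 6.58% and 4.99%, and 14.7% and 11.1%.

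TSC22D3, a glucocorticoid-induced gene, was at 2.15 ± 0.28 after genistein in PC3 and at -3.52 ± 0.39 after miR-375 in FaDu, where 5 of 8 metallothioneins were past 1.0 upwards. KLF9 was at 1.13 ± 0.69 and -2.67 ± 0.37 on these arrays. Of the 8 glucocorticoid response genes, 3 were past 1.0 upwards and 1 downwards after genistein in PC3, against 10.4% and 7.22% of all genes, and 0 upwards and 3 downwards after miR-375 in FaDu, against 10.2% and 12.5%. After miR-145 in PC3 there was 1 upwards, against 8.34% upwards and 5.65% downwards over all genes. After miR-23b and miR-24 there were 0 in either direction, against 6.58% and 4.99%, and 14.7% and 11.1%.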
